A study of Bos taurus with 32 samples.

Results

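The liver of cows fed a high-energy diet before calving was compared between 8 d before the predicted calving (-8 d) and 1 d after the actual calving (1 d). The members were chosen by title and day: 6 arrays of the group HIGH at 1 d and 5 arrays of the group HIGH at -8 d, 11 of the 32 arrays of the series. All were Ayrshire dairy cows, and RNA from liver biopsies was hybridised to Affymetrix bovine arrays. HIGH cows received the high-energy diet in the 6 weeks before predicted calving, and the CON cows used for comparison received a controlled-energy diet in the same weeks (5 arrays at -8 d, 4 at 1 d). Age, parity, the composition of the diets and the feeding after calving are not given in the sources used here. The design text speaks of more cows than the 12 whose arrays were analysed here. HIGH cows 432, 439, 460, 462 and 529 had an array on both days and cow 512 had one at 1 d only, so 5 cows could be followed across calving. Values below are log2 RMA values, in which a difference of 1 is a 2-fold change; they rank arrays for a probe set and do not rank genes.

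Around calving the liver of a dairy cow passes from supporting the late fetus to supporting milk synthesis. As general background, it makes most of its glucose from propionate, lactate and amino acids, takes up fatty acids released from adipose tissue, and becomes less responsive to growth hormone. Calving is also accompanied by an acute phase response, in which hepatocytes secrete plasma proteins such as haptoglobin and serum amyloid A under the control of inflammatory cytokines. Proteins that leave the cell are folded, glycosylated and packed in the endoplasmic reticulum (ER) and carried onward in coated vesicles.

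Each gene is represented by its probe set with the highest mean level. Of 9155 genes, 1170 (12.8%) were higher and 804 (8.78%) were lower at 1 d than at -8 d at an adjusted p under 0.05 (limma, cow as a random block, Benjamini-Hochberg over 24016 probe sets). The change reached 2-fold in 83 of the higher and 38 of the lower genes, and 4-fold in 13 and 4. All 5 paired cows moved in the called direction in 1005 of the higher and 670 of the lower genes. The ranges of the 2 days did not overlap in 546 genes that were higher at 1 d (5.96% of all genes) and in 327 that were lower (3.57%). The median change over all genes was 0.0031. Calls were more frequent among bright probe sets: of 4 equal bins of mean level, the dimmest had 5.65% called and the brightest 31.8%. Over probe sets, 2090 (8.7%) were higher and 1892 (7.88%) lower, and with arrays centred on low-variance probe sets the split was 2573 and 1228. Members named below include some chosen after their values were seen.

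Arrays of a group correlated with the rest of their group at r = 0.9922 to 0.9957, and no HIGH array stood apart. Hepatocyte markers were bright on every array, with list means of 13.24 to 13.28 at -8 d and 13.25 to 13.35 at 1 d, although 7 of the 17 fell, among them CYP2E1 (-0.67) and TTR (-0.34), and 4 rose, among them FGB (1.23) and APOA1 (0.97). With low-variance centring 4 rose and 4 fell. Of the control transcripts probed at both ends, elongation factor 1-alpha differed by day: its 3' value less its 5' value ran from -0.75 to -0.47 at -8 d and from -1.11 to -0.85 at 1 d, without overlap. For the GAPDH, actin and cyclophilin controls the days overlapped. The part of this shift in the results was not tested. In bulk tissue, fewer cells of a type and less RNA per cell cannot be told apart.

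**Figure D1:**
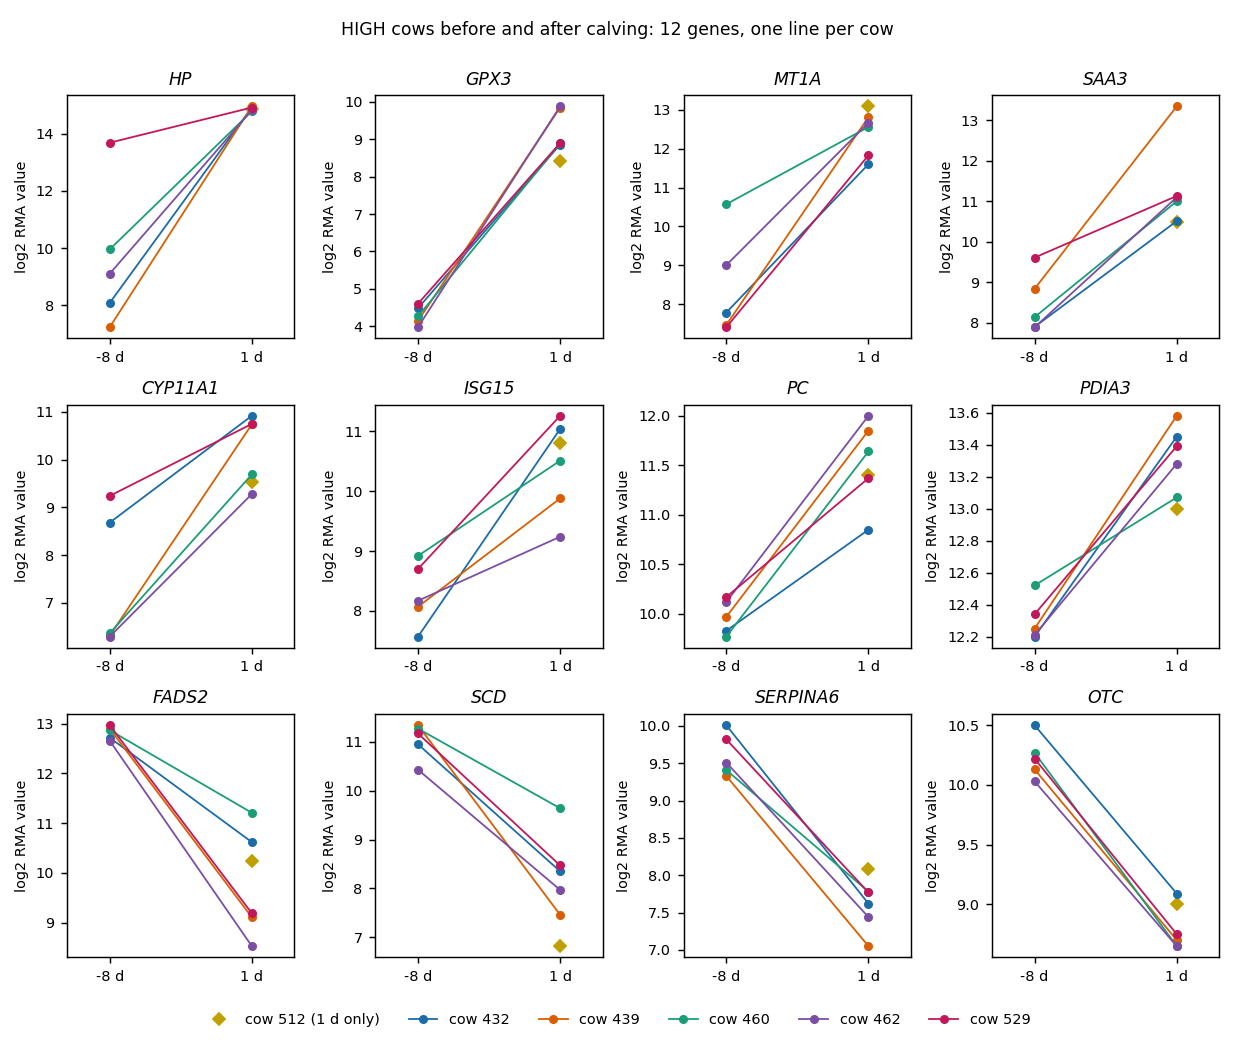
Log2 RMA value (vertical axis) of 12 genes at -8 d and 1 d (horizontal axis) in each HIGH cow; lines join the 2 arrays of a cow and the diamond is cow 512, which had no array at -8 d. HP lay between 7.23 and 13.68 at -8 d and between 14.78 and 14.95 at 1 d, while FADS2 began within 12.66 to 12.97 and spread to 8.53 to 11.21.

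An acute phase protein had the largest rise of all genes. Of 21 measured, 12 rose and 1, complement C3, fell (-0.11, SE 0.03), against 12.8% and 8.78% of all genes, and the median change was 0.31. HP, haptoglobin, which binds free haemoglobin, stood at 8.08, 7.23, 9.95, 9.10 and 13.68 at -8 d in cows 432, 439, 460, 462 and 529, the order used throughout. At 1 d it ranged from 14.78 to 14.95 with a median of 14.89. Every array at 1 d exceeded every array at -8 d, but cow 529 was already high before calving and changed by 1.23, against 4.83 to 7.72 in the other paired cows. The fitted change of HP was 5.25 (SE 0.89, adjusted p = 0.000105), or 38.2-fold. Its level at 1 d lay close to 15, the highest value in the table; saturation was not assessed, so the narrow range at 1 d and the size of the fold are uncertain.

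SAA3, a serum amyloid A of inflammation, was 7.90, 8.84, 8.14, 7.89 and 9.61 before calving and 10.50 to 13.34 (median 11.05) after it. Cow 439 was well above the others at 1 d, and the groups did not overlap (change 2.82, SE 0.41, adjusted p = 1.69e-05). LBP, which carries bacterial lipopolysaccharide, rose from 10.30, 10.93, 11.31, 10.07 and 11.51 to 12.47 to 13.69 (median 12.96; change 2.23, SE 0.35, adjusted p = 3.84e-05). SAA4, the constitutive serum amyloid A, rose by 1.75 (SE 0.24). ITIH4, an inter-alpha-trypsin inhibitor heavy chain, was the most even of these genes: 12.75, 12.32, 12.30, 12.38 and 12.75 against 13.97 to 14.34 (median 14.20; change 1.66, SE 0.12, adjusted p = 5.03e-11). The protease inhibitor A2M rose by 1.56 (SE 0.21) and the fibrinogen chain FGB by 1.23 (SE 0.20), whereas its partner FGG rose by 0.12. CRP (0.09, 95% interval -0.07 to 0.25) and ORM1 (0.29, interval 0.05 to 0.53, adjusted p = 0.0889) did not pass. ORM1 did pass under some other settings of the fit (adjusted p down to 0.0284).

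Plasma carriers and proteins that are lowered in the acute phase moved the other way: of 15 measured, 9 fell and 1, APOA1, rose. SERPINA6, the plasma carrier of cortisol, was 10.01, 9.33, 9.41, 9.51 and 9.82 at -8 d and 7.05 to 8.08 (median 7.70) at 1 d. Every cow lost more than 2-fold and the days did not overlap (change -1.99, SE 0.36, adjusted p = 0.000255). TTR, a carrier of thyroid hormone and of retinol-binding protein, fell in all paired cows by little but evenly, from 14.37, 14.40, 14.32, 14.36 and 14.29 to 13.79 to 14.10 (median 14.05; change -0.34, SE 0.04, adjusted p = 3.83e-06). PON1 (-0.33), RBP4 (-0.24), AHSG (-0.23), APOA2 (-0.19) and TF (-0.12) also fell. ALB, albumin, fell by 0.09 on its brightest probe set, but of its 9 probe sets 4 fell and 1 rose, and their mean changed by 0.004. APOA1, the main protein of high-density lipoprotein, rose by 0.97 (SE 0.20, adjusted p = 0.000774) with 1 d values of 13.21 to 13.85.

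Other innate immune proteins of the liver did not share 1 direction. Of 43 complement and coagulation genes, 9 rose and 10 fell, with a median of -0.03 that turned to 0.02 when arrays were centred on low-variance probe sets. The counts became 10 and 6 with that centring and 4 and 7 with cow as a fixed block. The fixed-block fit used only the 5 paired cows and had 4 residual degrees of freedom, against 26 in the reported fit. HRG, histidine-rich glycoprotein, fell most, from 13.30, 12.80, 13.20, 13.13 and 12.86 to 10 to 12.48 (median 11.75; change -1.55, SE 0.29, adjusted p = 0.000293). Cow 439 fell furthest and cow 432 least. SERPIND1, heparin cofactor II (-0.68), CFD, complement factor D (-0.53), and PROC, protein C (-0.38), fell as well, while coagulation factor F5 (0.50) and SERPINF2, the plasmin inhibitor (0.54, with another of its probe sets called lower), rose. Among 14 lectins, CGN1, the bovine collectin conglutinin, fell from 13.43, 12.56, 12.71, 12.42 and 12.82 to 10.15 to 11.50 (median 10.68; change -2.05, SE 0.42, adjusted p = 0.000811), COLEC11, another collectin, fell by 0.55, and the galectin LGALS4 rose by 0.65, a call lost without any of 9 of the 11 arrays in turn (adjusted p up to 0.142).

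Interferon-stimulated genes rose and none fell: 16 of 29 were higher, the median change was 0.56, and the others did not pass. ISG15, a ubiquitin-like protein conjugated during antiviral responses, went from 7.57, 8.07, 8.92, 8.17 and 8.70 to 9.24 to 11.26 (median 10.66). The groups did not overlap (change 2.14, SE 0.44, adjusted p = 0.000814). MX1, an antiviral GTPase, was 7.42, 7.44, 7.57, 7.79 and 7.73 before and 8.16 to 9.84 (median 8.61) after calving (change 1.31, SE 0.40, adjusted p = 0.0216). Without the array of cow 432 on either day, or that of cow 529 at 1 d, MX1 did not pass (1.11 to 1.25, adjusted p = 0.0568 to 0.0618). Cows 432 and 529 held the highest MX1 and ISG15 values at 1 d and cow 462 the lowest. EIF2AK2 (1.00), the RNA-activated kinase of translation factor eIF2, PARP9 (0.95), EPSTI1 (0.95) and USP18 (0.92), the protease that removes ISG15, rose too. RSAD2 (0.14) and IFIT2 (-0.18) did not pass.

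Cytokine, chemokine and receptor genes, in contrast, seldom passed: 1 of 41 rose, TGFB2 (0.86), and 3 fell, the chemokine CCL3 (-0.60), the alarmin IL33 (-0.40) and the receptor TGFBR2 (-0.31). CXCL10 had a change of -1.09 with an interval of -2.16 to -0.02 and did not pass. Without the -8 d array of cow 460 it was -0.40, and without cow 512, or with cow as a fixed block, it was -1.50 and passed (adjusted p = 0.0298 and 0.0489). In antigen presentation 1 of 19 fell, BOLA-DYA (-0.30), and none rose. BOLA-DYA was dim, 3.43 to 3.88 at -8 d, and without detection calls it is unknown whether it was above background.

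Neutrophil markers were given by a list of 13 genes, of which 4 rose and none fell. S100A12, a calgranulin of neutrophils, was 7.94, 6.91, 6.82, 7.52 and 7.68 at -8 d and 8.35 to 12.40 (median 9.81) at 1 d (change 2.65, SE 0.52, adjusted p = 0.000505). S100A8 rose by 1.76 (SE 0.32) and its partner S100A9 by 0.87 (SE 0.16), without overlap between days. Cows 432 and 529 had the highest S100A12 and S100A9 values at 1 d. LTF, lactoferrin, rose by 1.28 (SE 0.45, adjusted p = 0.0471), a call that was lost in 9 of 11 fits that left out 1 array (adjusted p up to 0.122). The other 9 changed by -0.19 to 0.07; the granule genes MPO, 4.86 to 5.32 at -8 d and 5.01 to 5.35 at 1 d, and ELANE, 3.48 to 3.68 and 3.40 to 3.82, overlapped between days. List means per array were 5.25 to 5.43 at -8 d and 5.55 to 6.27 at 1 d, and their part in the acute phase and interferon results was not tested.

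Few markers of other liver and blood cells passed. Of 8 cholangiocyte markers, 1 fell, ANXA4 (-0.22). None of 12 Kupffer cell and macrophage markers, 6 B and plasma cell markers and 6 adipocyte markers passed. Of 18 T and NK cell markers, 1 fell, CD3G (-0.54, lost in 8 of 11 fits without 1 array, adjusted p up to 0.0993). Of 15 stellate cell markers 2 fell, ACTA2 (-0.70, lost in 8 of those fits, adjusted p up to 0.14) and BGN (-0.31), and none rose. Of 15 endothelial markers 2 fell, EMCN (-0.55) and ERG (-0.33), and 1 rose, FCGR2B (0.65). In both lists 13.3% fell, against 8.78% of all genes, and the median changes were -0.11 and 0.03. Of 7 erythroid markers 1 fell, HBB, beta-globin. It was 8.59, 7.86, 5.72, 9.68 and 8.50 at -8 d and 5.64 to 7.24 (median 6.50) at 1 d (change -1.63, SE 0.46, adjusted p = 0.0123), on 1 of its 4 probe sets. Without the -8 d array of cow 462 it did not pass (-1.24, adjusted p = 0.0683). HBA had a change of -0.01 (interval -0.22 to 0.19).

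**Figure D2:**
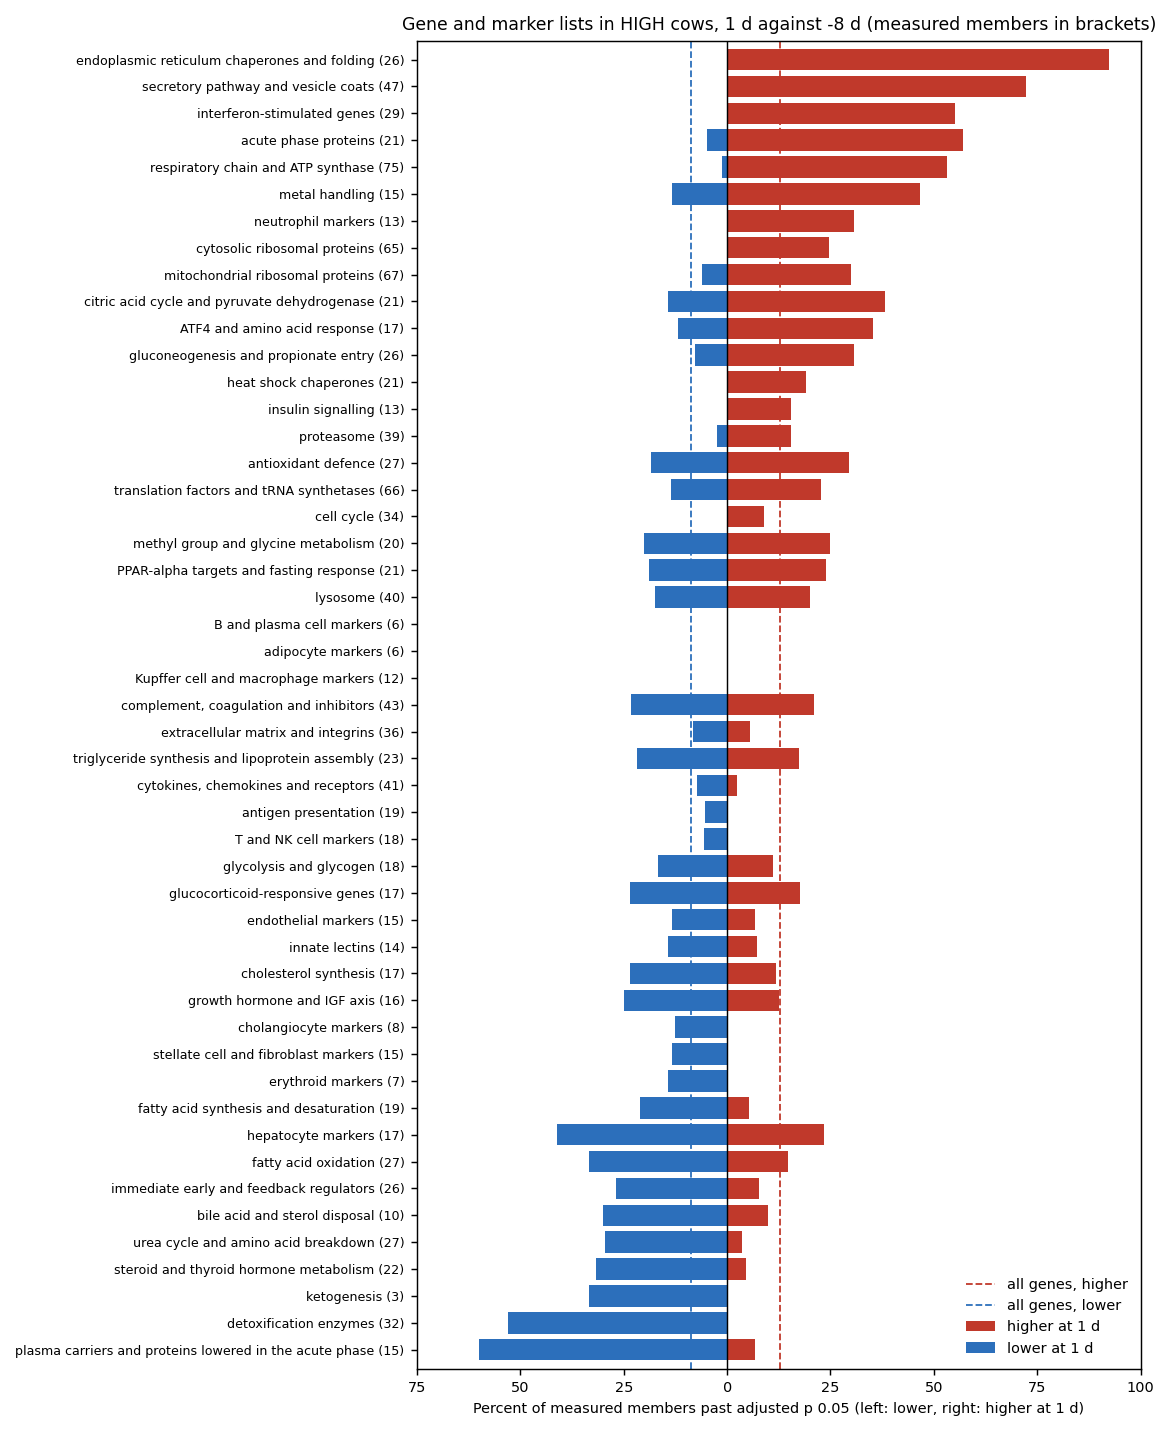
Percent of the measured members of each gene or marker list that were higher (right, red) or lower (left, blue) at 1 d at an adjusted p under 0.05 in HIGH cows; dashed lines are the shares over all genes, 12.8% higher and 8.78% lower. ER chaperones, with 24 of 26 higher, lead at the top and plasma carriers and detoxification enzymes, with 9 of 15 and 17 of 32 lower, stand at the bottom.

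The machinery that makes secreted proteins rose as a group. Of 26 ER chaperones and folding enzymes, 24 rose and none fell, with a median change of 0.69. PDIA3, a disulphide isomerase of glycoproteins, was 12.20, 12.25, 12.52, 12.21 and 12.34 before calving and 13 to 13.58 (median 13.34) after it (change 1.00, SE 0.10, adjusted p = 2.27e-08). CALR, the lectin chaperone calreticulin, rose from 10.44, 10.53, 10.53, 10.25 and 10.93 to 11.13 to 12.15 (median 12; change 1.27, SE 0.15). The days did not overlap in either gene. HSPA5, the ER Hsp70 known as BiP, was 11.07 in cow 432 and 11.94, 12.38, 12.26 and 12.41 in the other cows at -8 d, and 12.78 to 13.33 (median 13.03) at 1 d, on all 3 of its probe sets (change 1.04, SE 0.20, adjusted p = 0.000438). CRELD2 (1.59, SE 0.30) and MANF (1.49), both small ER proteins induced under folding load, and HYOU1 (1.19, or 0.21 as the mean of its probe sets), PDIA4 (1.17) and SEL1L (0.93), a part of the ER degradation ligase, also rose. SIL1 and DNAJB11 were higher by 0.19 and 0.29 but did not pass.

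In the secretory pathway and its vesicle coats 34 of 47 genes rose, none fell, and the median change was 0.51. KDELR3, a receptor that returns chaperones to the ER, had the largest change of the list, from 8.04, 8.81, 8.32, 8.67 and 8.87 to 9.80 to 11.07 (median 10.21; change 1.82, SE 0.25, adjusted p = 8.68e-06). SSR3, a subunit of the translocon-associated complex, rose from 10.46, 10.55, 10.27, 10.40 and 10.57 to 11.43 to 12.39 (median 11.80; change 1.38, SE 0.14, adjusted p = 9.56e-08). Groups within the route were set out after their values were seen. All 7 measured subunits of the Sec61 translocon and the translocon-associated complex rose, by 0.55 to 1.38. All 8 measured subunits of the oligosaccharyltransferase, which attaches N-glycans, rose, by 0.23 to 1.24, led by the catalytic subunit STT3B, which went from 7.21, 7.38, 7.36, 7.01 and 7.70 to 8.22 to 9.00 (median 8.55). Of 5 signal peptidase genes 4 rose, up to 1.08 in SEC11C. In the vesicle coats 3 of 7 COPI and 4 of 7 COPII genes rose. FKBP11, a prolyl isomerase of the ER, rose from 9.75, 9.95, 9.82, 9.92 and 10.16 to 11.20 to 12.19 (median 11.70; change 1.75, SE 0.16), and SERP1, which associates with the translocon, by 1.38 (SE 0.18).

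**Figure D3:**
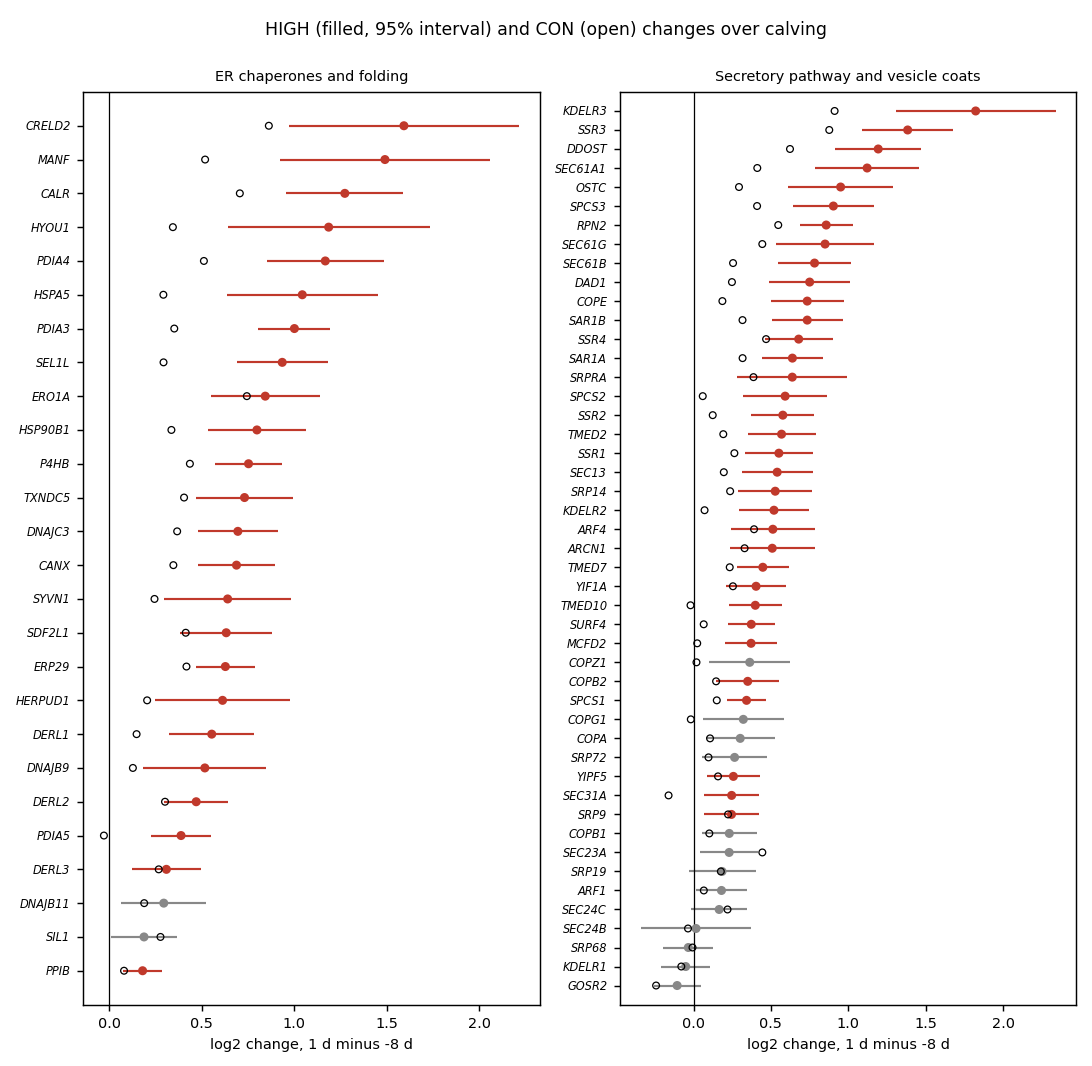
Log2 change, 1 d minus -8 d (horizontal axis), of each measured ER chaperone (left) and secretory pathway gene (right) in HIGH cows, with its 95% interval from the fit; red passed the threshold, grey did not, and open circles are the changes in CON cows. KDELR3, at 1.82, lies furthest right and the lowest estimate is -0.11, in GOSR2.

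The ATF4 and amino acid response list held 17 genes, of which 6 rose and 2 fell. ATF4 itself, a transcription factor of the integrated stress response, rose by 0.82, with SLC7A5 (0.54), an amino acid transporter, and TRIB3 (0.58), a call lost in 10 of 11 fits without 1 array (adjusted p up to 0.108). DDIT4, an inhibitor of mTORC1, fell from 10.58, 12.32, 11.69, 11.79 and 11.62 to 8.70 to 11.75 (median 9.33; change -1.76, SE 0.39, adjusted p = 0.0017). NUPR1 fell by 0.61. DDIT3, which encodes CHOP, had a change of 0.12 and did not pass.

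Translation genes were divided. The list of 66 initiation and elongation factors and tRNA synthetases was set by symbol pattern. It therefore also held EIF2AK2 and EIF4EBP1, which are not such factors. In this list 15 genes rose and 9 fell, with EIF2AK2 (1.00), also counted among the interferon-stimulated genes, the largest rise. The counts were 10 and 7 in the 11 HIGH arrays alone and 8 and 8 when these were also quantile normalised again. In groups set out after their values were seen, 6 of 16 cytosolic tRNA synthetases rose, led by GARS1 (0.75) and MARS1 (0.69), and none fell, while of 11 subunits of initiation factor eIF3, 2 rose and 4 fell. EIF3E was 11.67, 11.73, 11.72, 11.79 and 11.58 at -8 d and 10.53 to 11.30 (median 11.02) at 1 d (change -0.72, SE 0.11, adjusted p = 1.69e-05), and EIF3H fell by 0.57. EIF3B (0.35) and EIF3A (0.22) rose, the latter lost in 7 of 11 fits without 1 array (adjusted p up to 0.149). Ribosomal proteins changed by small amounts: 16 of 65 cytosolic members rose, by at most 0.38, and none fell, but 7 rose and 1 fell with cow as a fixed block. The 16 are 24.6%, against 12.8% of all genes. They are bright genes, and of the brightest of 4 equal bins of probe sets 18.9% were called higher.

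Mitochondrial genes of energy production shifted upward by small steps. In the respiratory chain and ATP synthase 40 of 75 genes rose and 1, ATP5MC2, fell, with a median of 0.19. The count of rises was 20 with cow as a fixed block, 30 in a fit of the 11 HIGH arrays alone, and 25 when those 11 arrays were also quantile normalised again. UQCRB, a subunit of complex III, had the largest change, from 11.43, 11.47, 11.49, 11.44 and 11.57 to 12.10 to 12.57 (median 12.30; change 0.82, SE 0.09, adjusted p = 1.47e-07). By complex, in groups set after their values were seen, 19 of 36 genes of complex I, 4 of 9 of complex III with cytochrome c1, 7 of 13 of complex IV and 10 of 17 of ATP synthase rose. Among 21 genes of the citric acid cycle and pyruvate dehydrogenase, 8 rose and 3 fell. IDH3A, a subunit of the NAD-dependent isocitrate dehydrogenase, rose from 6.39, 6.85, 6.78, 7.15 and 7.26 to 7.88 to 8.52 (median 8.06; change 1.22, SE 0.14), while its partner IDH3G fell by 0.24. IDH2 (0.76) and OGDH (0.52) rose and SDHC (-0.21) fell. Mitochondrial ribosomal proteins gave 20 rises (29.9%) and 4 falls (5.97%) among 67, against 12.8% and 8.78% of all genes. There were 12 rises in the 11 HIGH arrays alone and 8 when these were also quantile normalised again.

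Of 19 genes of fatty acid synthesis and desaturation, 4 fell and 1 rose, and the desaturases fell most. FADS2, the delta-6 desaturase of polyunsaturated fatty acids, had the largest fall of all genes, from 12.72, 12.90, 12.87, 12.66 and 12.97 to 8.53 to 11.21 (median 9.72; change -3.0, SE 0.37, adjusted p = 1.36e-06), or 8.03-fold lower. SCD, the delta-9 desaturase that makes monounsaturated fatty acids, fell from 10.95, 11.34, 11.27, 10.43 and 11.17 to 6.82 to 9.64 (median 8.16; change -2.86, SE 0.36, adjusted p = 2.1e-06). The days did not overlap in either, and the spread at 1 d was wide. ACSS2, which activates acetate, fell from 9.21, 9.67, 9.54, 8.60 and 9.48 to 6.90 to 9.07 (median 7.84; change -1.40, SE 0.27). THRSP, a lipogenic regulator, fell by 1.78 (SE 0.61, adjusted p = 0.0423) but was lost in 9 of 11 fits without 1 array (adjusted p up to 0.131). Cow 460 held the highest 1 d value of FADS2, SCD, ACSS2 and THRSP alike. ACLY, which makes cytosolic acetyl-CoA from citrate, rose by 0.35 (SE 0.11, adjusted p = 0.0238) and was lost in 4 of those fits (adjusted p up to 0.0771). The synthase FASN (-0.22, interval -0.72 to 0.27), the carboxylase ACACA (-0.16, interval -0.34 to 0.03) and the regulator SREBF1 (-0.08, interval -0.55 to 0.39) did not pass.

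In cholesterol synthesis 4 of 17 genes were lower, TM7SF2 (-0.94), LSS (-0.77), EBP (-0.53) and ACAT2 (-0.37), and 2 higher, SQLE (0.60) and FDFT1 (0.53), which act in adjoining steps before LSS. FDFT1 did not pass in 7 of 11 fits without 1 array (adjusted p up to 0.14). With the 11 HIGH arrays quantile normalised again, 6 genes of the list were lower and 0 higher. In bile acid and sterol disposal 3 of 10 fell and 1 rose, the lipoprotein receptor SCARB1 (0.56). CYP7A1, the rate-limiting enzyme of bile acid synthesis, had a change of 0.08 (interval -0.64 to 0.80), and the sterol exporter ABCG8 one of -0.93 (interval -1.77 to -0.09, adjusted p = 0.122). Neither passed.

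Fatty acid oxidation, which burns the fatty acids arriving from adipose tissue, had more members that fell than rose, 9 and 4 of 27. These are 33.3% and 14.8%, against 8.78% lower and 12.8% higher of all genes. The counts became 8 and 6 with low-variance centring and 7 and 3 with cow as a fixed block. HADH, the dehydrogenase of short and medium chains, fell from 12.72, 12.50, 12.59, 12.46 and 12.50 to 11.52 to 12.14 (median 11.91; change -0.72, SE 0.09, adjusted p = 1.79e-06). ACADS, the short-chain acyl-CoA dehydrogenase, fell from 11.14, 11.14, 10.87, 10.87 and 10.95 to 10.11 to 10.46 (median 10.32; change -0.70, SE 0.07, adjusted p = 1.13e-07). The days did not overlap in either. ACADL (-0.62) and ACADM (-0.21) fell while ACADVL, for very long chains (0.38, SE 0.10, adjusted p = 0.00704), and ACADSB, for branched short chains (0.44), rose. SLC22A5, the carnitine importer, rose from 6.27, 6.22, 5.89, 6.19 and 6.71 to 6.68 to 7.49 (median 7.15; change 0.88, SE 0.17). Of 3 ketogenesis genes measured, 1, ACAT1, fell (-0.20), and it did not pass with cow as a fixed block (adjusted p = 0.0663) or with low-variance centring (adjusted p = 0.0817).

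The list of targets of the fatty acid receptor PPAR-alpha also held other genes of the fasting response and the receptor itself. Its members went in both directions, 5 of 21 higher and 4 lower. With low-variance centring, and with cow as a fixed block, 7 were higher and 4 lower. ANGPTL4, a secreted inhibitor of lipoprotein lipase, rose from 7.27, 7.14, 6.72, 7.06 and 7.45 to 8.36 to 9.43 (median 8.72; change 1.72, SE 0.25, adjusted p = 1.9e-05). PPARGC1A, a coactivator of gluconeogenic and mitochondrial genes, rose by 0.85, and PLIN2, a lipid droplet coat, by 0.73. VNN1, pantetheinase, fell from 11.05, 10.66, 10.59, 11.43 and 9.94 to 8.23 to 10.28 (median 8.97; change -1.67, SE 0.33, adjusted p = 0.000593), and every paired cow went down although the ranges overlapped. FABP1, the fatty acid binding protein of liver, fell by 0.42. PDK4 (-0.48, interval -1.10 to 0.13) and PPARA itself (0.32, interval 0.05 to 0.58, adjusted p = 0.0935) did not pass. In triglyceride synthesis and lipoprotein assembly 4 of 23 rose, MTTP (0.42), which loads lipid onto apolipoprotein B, DGAT1 (0.45), SAR1B (0.73) and TM6SF2 (0.38, lost in 7 of 11 fits without 1 array, adjusted p up to 0.118), and 5 fell, among them hepatic lipase LIPC (-0.90). APOB (-0.20, adjusted p = 0.0805), GPAM (-0.30, adjusted p = 0.0795) and DGAT2 (-0.08) did not pass.

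Of 26 genes of gluconeogenesis and propionate entry, 8 rose and 2 fell, and the largest rises lay at the entry of pyruvate, lactate and alanine. PC, pyruvate carboxylase, which makes oxaloacetate from pyruvate, was 9.83, 9.97, 9.77, 10.12 and 10.17 before calving and 10.85 to 12 (median 11.52) after it, without overlap (change 1.55, SE 0.16, adjusted p = 1.17e-07). The mean of all PC probe sets changed by 0.63. SLC16A1, the monocarboxylate transporter of lactate, rose from 6.32, 6.82, 7.33, 7.07 and 6.65 to 7.51 to 8.81 (median 7.92; change 1.27, SE 0.22). LDHA, lactate dehydrogenase A (0.89, SE 0.22), rose on 1 of 3 probe sets while another fell, and LDHB (0.68) and the alanine transaminase GPT2 (1.02) rose. Among other steps, PCK1 (0.01, interval -0.12 to 0.13), FBP1 (-0.02, interval -0.44 to 0.40) and G6PC1 (0.03, interval -0.27 to 0.32) did not pass. PCCB (-0.53) and MMUT (-0.42), of the propionate route, fell. In glycolysis PKLR, the pyruvate kinase of liver that works against gluconeogenesis, fell from 10.05, 9.91, 9.85, 10.01 and 9.84 to 8.15 to 9.32 (median 8.68; change -1.14, SE 0.14, adjusted p = 1.27e-06).

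**Figure D4:**
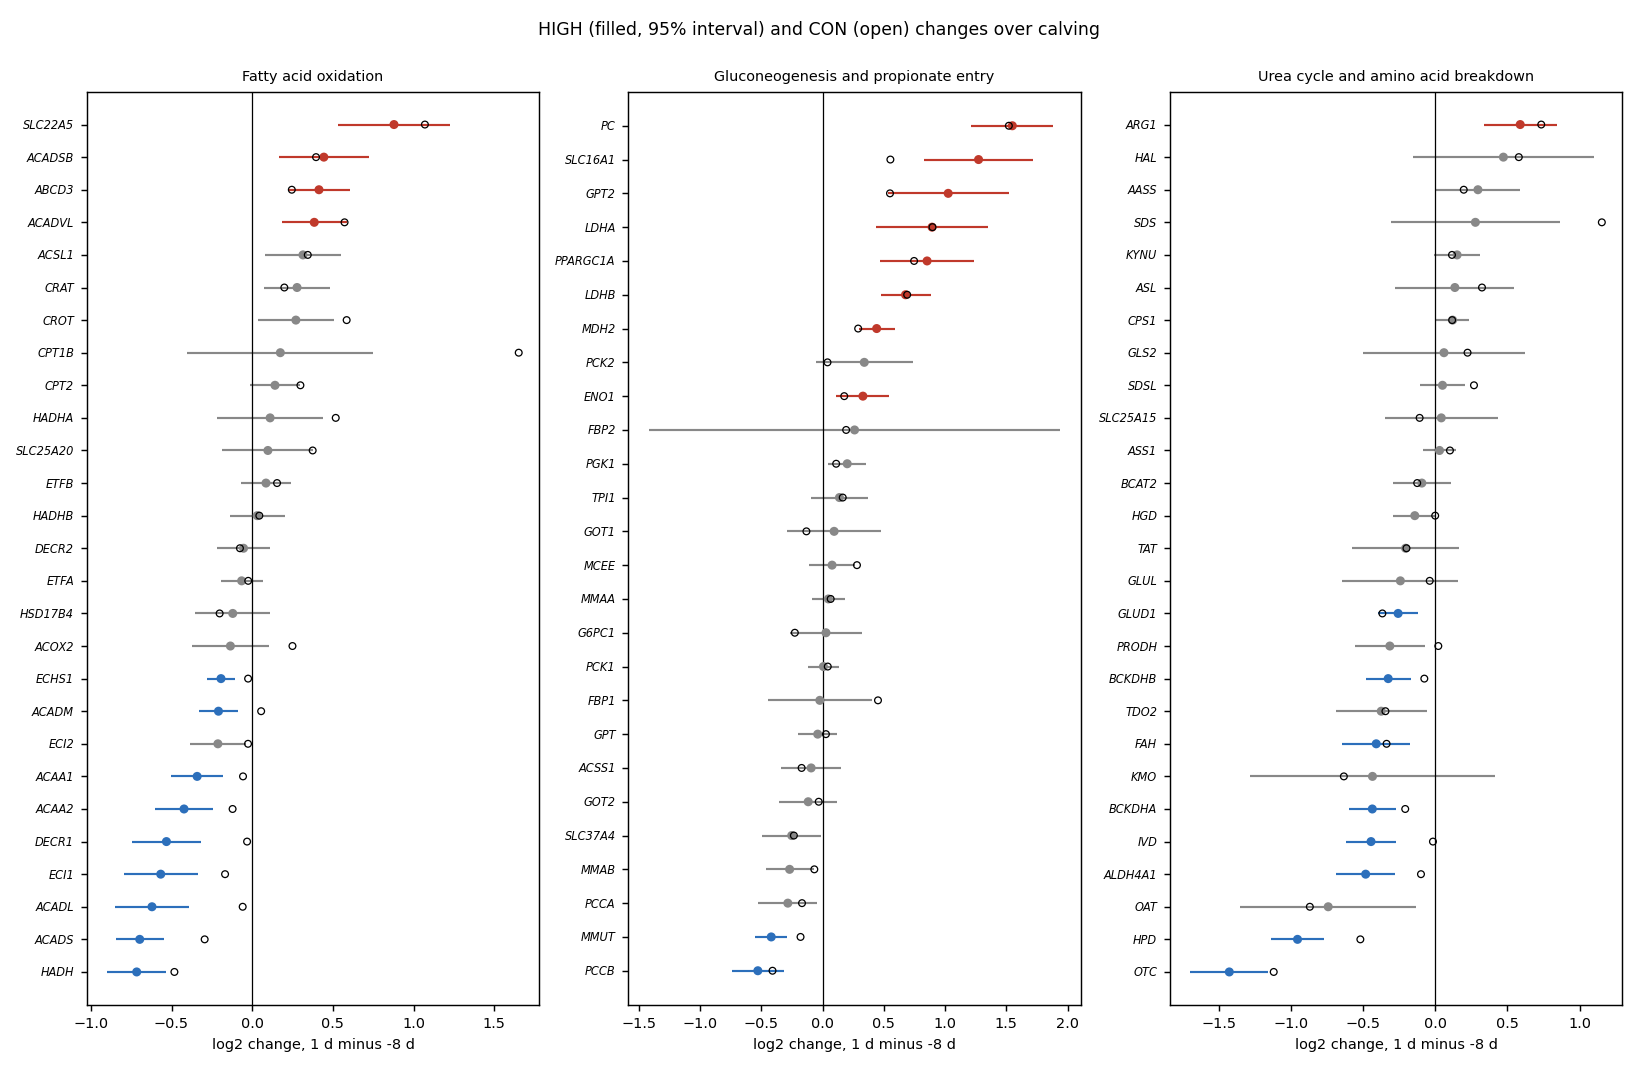
Log2 change, 1 d minus -8 d (horizontal axis), of each measured gene of fatty acid oxidation, of gluconeogenesis with propionate entry and of the urea cycle with amino acid breakdown in HIGH cows, with 95% intervals from the fit; red rose, blue fell, grey did not pass, and open circles are CON cows. PC at 1.55 and OTC at -1.43 mark the ends, with PCK1 near 0.

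Urea cycle and amino acid breakdown genes were mostly lower where they passed, 8 of 27, with 1 higher. OTC, ornithine transcarbamylase of the urea cycle, fell from 10.50, 10.13, 10.27, 10.03 and 10.22 to 8.65 to 9.09 (median 8.73; change -1.43, SE 0.13, adjusted p = 1.58e-08). Its paired changes were among the most even of all changes of at least 2-fold. HPD, of tyrosine breakdown, was nearly equal among cows at -8 d, 11.63, 11.64, 11.65, 11.61 and 11.58, and fell to 10.46 to 11.06 (median 10.56; change -0.96, SE 0.09, adjusted p = 2.09e-08). ARG1, arginase, which cleaves arginine to urea, rose from 13.06, 12.97, 12.76, 13.15 and 12.88 to 13.09 to 13.97 (median 13.65; change 0.59, SE 0.12, adjusted p = 0.0012). CPS1 (0.12), ASS1 (0.03) and ASL (0.13), other steps of the cycle, did not pass. Of 20 genes of methyl group and glycine metabolism, 5 rose and 4 fell, and with no cow block these counts were 2 and 2. GNMT, which methylates glycine and so uses S-adenosylmethionine, rose from 7.04, 6.66, 6.25, 6.11 and 6.74 to 7.57 to 9.60 (median 8.59; change 1.98, SE 0.29, adjusted p = 1.9e-05).

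Of 16 genes of the growth hormone and IGF axis, 4 fell and 2 rose; the median of -0.02 turned to 0.02 with arrays centred on low-variance probe sets. GHR, the growth hormone receptor, was 10.74, 10.30, 10.81, 10.72 and 10.18 at -8 d and 9.17 to 10.65 (median 9.72) at 1 d (change -0.78, SE 0.23, adjusted p = 0.0206), with cow 432 hardly changed, and 1 of its 11 probe sets passed. The call was lost without cow 460 or cow 462 at -8 d or cow 462 at 1 d (-0.71 to -0.66, adjusted p up to 0.0623). IGF1 was 8.58, 8.76, 8.15, 8.39 and 8.45 and then 7.65 to 8.61 (median 7.78; change -0.56, SE 0.12, adjusted p = 0.00112). Cow 432 was again the highest at 1 d, and its IGF1 did not fall. IGFALS, the acid-labile subunit that holds IGF1 in plasma, fell in all paired cows, from 10.08, 10.44, 10.03, 9.78 and 10.25 to 7.90 to 9.32 (median 8.43; change -1.65, SE 0.23, adjusted p = 9.74e-06). IGFBP3, the main binding protein, fell by 0.55, while IGFBP2, which binds IGF outside that complex, rose by 0.88 (SE 0.18, adjusted p = 0.00112) and IGFBP4 by 0.40. SOCS2, an inhibitor induced by growth hormone, had a change of 0.14 (interval -0.29 to 0.57). In insulin signalling SHC1 (0.26) and PIK3CA (0.29) of 13 genes rose, with SHC1 lost in 7 and PIK3CA in 4 of 11 fits without 1 array (adjusted p up to 0.174 and 0.0835; SHC1 was 0.17 without cow 529 at 1 d), and the receptor INSR had a change of 0.07.

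Detoxification enzymes fell: 17 of 32 were lower and none higher, with a median of -0.35. CYP2C87, a cytochrome P450, fell from 8.79, 9.19, 9.69, 9.12 and 9.61 to 6.41 to 8.25 (median 7.69; change -1.83, SE 0.38, adjusted p = 0.000978). CYP1A1, a P450 induced through the aryl hydrocarbon receptor, was nearly equal among cows at -8 d, 12.94, 12.87, 12.80, 12.86 and 12.77, and spread to 10.15 to 12.55 (median 11.69) at 1 d (change -1.30, SE 0.26, adjusted p = 0.000736). CYP2D14 fell from 13.36, 13.13, 13.15, 13.37 and 13.13 to 11.89 to 12.75 (median 12.31; change -0.93, SE 0.10). CYP2E1 (-0.67), EPHX1 (-0.60), the epoxide hydrolase, GSTT1 (-0.73) and UGT1A6 (-0.53) fell as well.

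Steroid and thyroid hormone genes gave 7 falls and 1 rise among 22. HSD17B2, which inactivates oestradiol and testosterone, fell from 9.13, 8.96, 9.07, 9.11 and 8.85 to 6.17 to 8.58 (median 7.67; change -1.49, SE 0.27, adjusted p = 0.000262). DIO1, the deiodinase that activates thyroxine, fell by 0.84 (SE 0.23, adjusted p = 0.00951) and HSD11B1, which regenerates cortisol, by 0.60. CYP11A1, the side-chain cleavage enzyme that opens steroid synthesis in adrenal and gonad, stood at 8.68, 6.31, 6.36, 6.29 and 9.24 at -8 d and 9.28 to 10.92 (median 10.22) at 1 d (change 2.82, SE 0.50, adjusted p = 0.000187). Cows 432 and 529 were high before calving and the others low, and the days did not overlap. HSD3B1, the next enzyme of that pathway, had a change of 1.23 (interval 0.32 to 2.14, adjusted p = 0.0559) and did not pass. It did pass under some other settings of the fit (adjusted p from 0.0156 to 0.166 over all settings).

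Metal and redox genes held several of the largest rises. MT1A, a metallothionein that binds zinc and copper, went from 7.78, 7.46, 10.57, 9.00 and 7.40 to 11.60 to 13.09 (median 12.62; change 3.96, SE 0.59, adjusted p = 1.9e-05), and MT2A from 9.57, 8.64, 10.70, 10.41 and 9.73 to 11.19 to 12.42 (median 11.91; change 2.00, SE 0.39). Cow 460 had the highest -8 d value of both. TFRC, the transferrin receptor, rose by 0.86 (SE 0.12), and in all 7 of 15 metal-handling genes rose and 2 fell, the zinc importer SLC39A8 (-0.51) and TFR2 (-0.24, lost in 9 of 11 fits without 1 array, adjusted p up to 0.138). GPX3, the secreted glutathione peroxidase, stood at 4.48, 4.14, 4.26, 3.97 and 4.60 and reached 8.42 to 9.88 (median 8.90) at 1 d, a change of 4.87 (SE 0.34, adjusted p = 3.48e-11) or 29.1-fold. Its -8 d values lay near 4.23, the mean level at which the dimmest of 4 equal bins of probe sets ends. Detection calls were not used, so the size of this fold is uncertain. PRDX4, the peroxiredoxin of the ER, rose from 10.25, 10.60, 10.47, 10.62 and 10.69 to 11.90 to 12.55 (median 12.05; change 1.59, SE 0.11). Of 27 antioxidant genes, 8 rose, with SRXN1 (1.04) and GPX4 (0.84), and 5 fell, with MSRA (-0.66), PRDX6 (-0.52) and catalase CAT (-0.21).

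Immediate early and feedback regulators mostly fell where they passed, 7 of 26, with 2 higher. GADD45B, a stress-induced growth arrest protein, was 8.89, 10.57, 9.64, 9.87 and 10.09 and then 6.50 to 10.32 (median 7.21; change -2.06, SE 0.46, adjusted p = 0.00212). DUSP1, a phosphatase that shuts off MAP kinases, fell from 10.30, 11.66, 10.83, 11.44 and 10.94 to 8.91 to 11.07 (median 9.13; change -1.44, SE 0.35). Cow 439 had the highest value at 1 d of GADD45B, DUSP1 and DDIT4 and hardly fell in the first. EGR1, a zinc finger factor of early responses, rose from 5.49, 8.21, 6.14, 7.49 and 6.19 to 7.52 to 10.01 (median 8.67; change 1.86, SE 0.61, adjusted p = 0.0332), except in cow 439, and was lost in 6 of 11 fits without 1 array (adjusted p up to 0.118). Of 17 glucocorticoid-responsive genes, 3 rose, MT1A, MT2A and ANGPTL4, and 4 fell, DDIT4, DUSP1, NFKBIA (-0.76) and CEBPD (-0.38), while FKBP5 had a change of -0.06.

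Smaller numbers of calls came from the remaining lists. In the cell cycle 3 of 34 rose, cyclin CCND1 (0.94), TK1 (0.64) and RRM1 (0.29), the latter pair serving nucleotide synthesis. Heat shock chaperones gave 4 rises among 21, led by the mitochondrial chaperone TRAP1 (0.65), and none fell. In the proteasome 6 of 39 rose and 1 fell, in the lysosome 8 rose and 7 fell of 40, and in the extracellular matrix 2 rose and 3 fell of 36. In these lists at most 20% rose and at most 17.5% fell, both in the lysosome, against 12.8% and 8.78% of all genes. The proteasome rises were 15.4%. Proteasome rises numbered 2 with cow as a fixed block, 5 in the 11 HIGH arrays alone and 1 when these were also quantile normalised again.

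Several of the largest changes lay outside these lists. LOC613358 rose from 7.92, 6.73, 9.78, 9.90 and 8.90 to 11.93 to 13.95 (median 13.11; change 4.48, SE 0.64, adjusted p = 1.28e-05). C5H12orf75 rose by 3.08 (SE 0.28), NNAT, an ER membrane proteolipid, by 2.35 (SE 0.33), NUCB2, a calcium-binding secreted protein, by 2.20 (SE 0.21), and CGREF1 by 2.00 (SE 0.32). Among falls, TMED6 had a change of -1.91 (SE 0.44), TCEA3, a transcription elongation factor, one of -1.60 (SE 0.29), CA3, carbonic anhydrase III, one of -1.54 (SE 0.20) and XPNPEP2, an aminopeptidase, one of -1.54 (SE 0.28). The most even large changes over the 5 paired cows, besides OTC and KDELR3, were those of PLPP5 (1.57, SE 0.16), SLC17A9, a nucleotide transporter (1.93, SE 0.23), and LDHD, the D-lactate dehydrogenase (-1.12, SE 0.15). LDHD was 7.62, 7.63, 7.65, 7.32 and 7.47 at -8 d and 6.31 to 6.72 at 1 d.

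Some of the smaller calls above were lost when a single array was left out. Such a fit has fewer arrays and mostly fewer calls. Without the -8 d array of cow 432, 1594 probe sets were higher and 1376 lower, against 2090 and 1892. The part of the smaller sample in the losses was not tested. Without the -8 d array of cow 432, FGG (0.11, adjusted p = 0.0601), BOLA-DYA (-0.22, adjusted p = 0.051) and IDH3G (-0.21, adjusted p = 0.0601) did not pass. Without the -8 d array of cow 462, EIF3B (0.28, adjusted p = 0.0739), IGFBP3 (-0.46, adjusted p = 0.065) and PLIN2 (0.61, adjusted p = 0.0569) did not. The same held for CEBPD without cow 439 at -8 d (-0.32, adjusted p = 0.064), BGN without cow 460 at -8 d (-0.27, adjusted p = 0.0501) and GARS1 without cow 529 at 1 d (0.53, adjusted p = 0.0587). NFKBIA was lost without cow 439 or cow 462 at -8 d, RRM1 without cow 432 or cow 460 at -8 d, and SQLE without cow 529 at -8 d or cow 460 at 1 d. C3, SDHC and IL33 were lost in 4 fits each and ACADSB, AHSG and ERG in 3 each, with adjusted p up to 0.122. None of these changes turned its sign.

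Other settings ended or began some calls. With cow as a fixed block, ALB, TF, APOA2, EIF2AK2, MTTP, ACADM, ATOH1, ANXA4 and ACAT1 did not pass (adjusted p from 0.0545 to 0.281). Nor did 15 of the genes already named as lost without a single array. With that block ABCG8 (-0.78), ORM1 (0.26), PDK4 (-0.60) and APOB (-0.26) passed. The fixed-block fit had 4 residual degrees of freedom against 26, and the part of this in the lost calls was not tested. With low-variance centring 12 genes with a printed value lost their call (adjusted p from 0.052 to 0.324). They were ALB, TF, C3, ACADM, ACAT1, AHSG, ACTA2, CD3G, IDH3G, IL33, SDHC and TFR2. With that centring DNAJB11 (0.34) and ORM1 (0.33) passed. Taking the mean of all probe sets of a gene, EIF2AK2 changed by 0.44, FGB by 0.58, HBB by -0.40, EGR1 by 0.86, SLC22A5 by 0.47 and C5H12orf75 by 1.92, each at least 1.5 times smaller than its brightest probe set. Also smaller with that mean were FKBP2 (0.37), PRDX6 (-0.20), MARS1 (0.36), LTF (0.66), LDHD (-0.67), XPNPEP2 (-0.90), UQCRB (0.51) and CCL3 (-0.37). Larger changes included those of S100A9 (1.43), C3 (-0.35) and APOB (-0.32).

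Other cows crossed calving on the controlled-energy diet, and none of their arrays is shared with the HIGH cows. In CON 799 probe sets were higher at 1 d (3.33%) and 724 were lower (3.01%), 6.34% in either direction, against 2090 (8.7%) and 1892 (7.88%) in HIGH; CON had 9 arrays and 3 cows with both days. Of the probe sets called higher in HIGH, 94.2% were also higher in CON and 28.4% were called there, and of those called lower 90.4% were lower and 23.1% called, while 69.5% of all probe sets had the same sign. No probe set was called in opposite directions. Seen from CON, 67.6% of its calls were called the same way in HIGH. Across probe sets, which are not independent replicates, the changes of the 2 diets correlated at r = 0.7325. Changes of 2 HIGH cows correlated at r = 0.3563 to 0.5844 (10 pairs), and those of a HIGH and a CON cow at 0.1715 to 0.5844 (15 pairs).

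The difference between the diets in the calving change was tested in the same fit. No probe set passed (limma; smallest adjusted p = 0.353), with 1723 probe sets (7.17%) at an unadjusted p under 0.05. The smallest p belonged to PDIA3, which rose by 1.00 in HIGH and by 0.35 in CON (difference 0.65, unadjusted p = 8.72e-05). APON, apolipoprotein N, had changes of -0.59 and 0.37 (difference -0.97, unadjusted p = 0.000107), SLC18A2 of 0.49 and -0.11, ATOH1 of -0.22 and 0.16, and FKBP2, an ER prolyl isomerase, of 0.90 and 0.32. The median change of the ER chaperone list was 0.69 in HIGH and 0.34 in CON, and that of the secretory list 0.51 and 0.20; these are descriptions, and no gene of them passed the test of the difference. Of the 4 largest rises of named genes, HP had 5.25 in HIGH and 4.42 in CON, GPX3 4.87 and 4.41, LOC613358 4.48 and 3.19 and MT1A 3.96 and 2.81. Of the 4 largest falls, FADS2 had -3.0 and -2.86, SCD -2.86 and -2.49, GADD45B -2.06 and -1.22 and CGN1 -2.05 and -1.71.

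**Figure D5:**
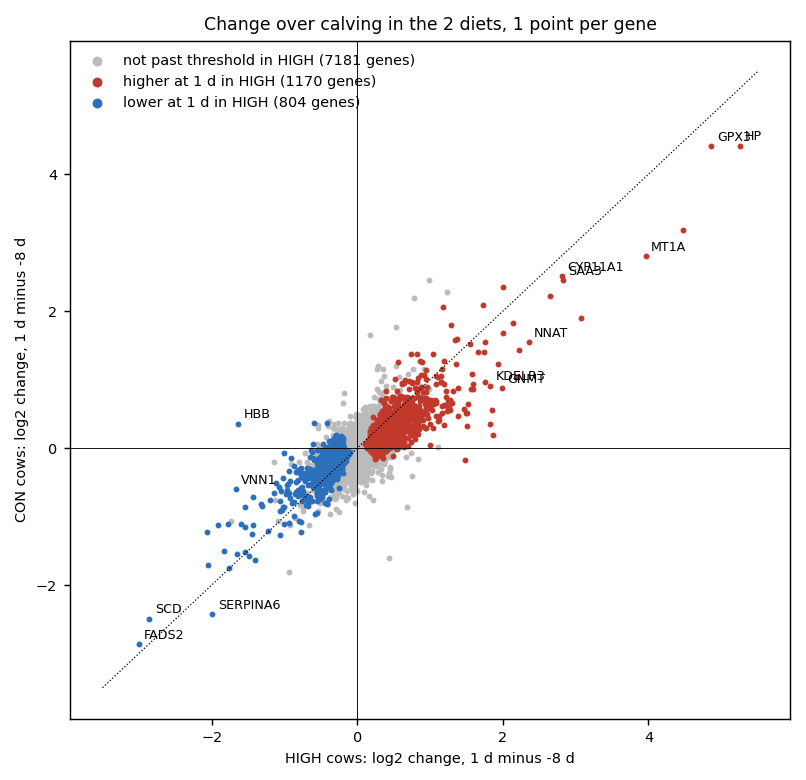
Log2 change over calving of each of 9155 genes in HIGH cows (horizontal axis) against CON cows (vertical axis); red and blue genes passed the threshold in HIGH (1170 higher, 804 lower), and the dotted line marks equal change. HP, GPX3, FADS2 and SCD are marked at the ends of the cloud, and HBB is the large fall with a change of the other sign in CON (-1.63 and 0.36).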

How the data were processed

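RNA of liver biopsies from 12 cows was measured on 32 Affymetrix bovine arrays in 6 groups of diet and day. The deposited values are on a log2 scale; the authors' software was Affymetrix Expression Console 1.1, with RMA as the method, per the submitters' processing notes. Settings of RMA are not given in the sources used here. RMA equalises distributions and compresses dim and very bright signals. Array medians were 5.86 to 5.93, and the number of arrays limits precision.

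The table held 24128 probe sets, and 112 of them, controls, were dropped. Of the rest, 13292 carried 1 gene symbol in the platform annotation, 86 several and 10638 none; a gene is represented by whichever of its probe sets was brightest on average over the 32 arrays.

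Limma 3.58.1 in R 4.3.3 (statmod 1.5.0) fitted a mean for each of the 6 groups, took cow as a random effect (duplicateCorrelation, consensus 0.138; 26 residual degrees of freedom), and used a mean-variance trend and Benjamini-Hochberg adjustment over 24016 probe sets; tests are two-sided and intervals 95% and unadjusted. Cow numbers in the labels pair the arrays: deviations of the same cow correlated at 0.2552 to 0.4471 (5 pairs). P-values rest on a moderated spread per probe set that is shared by all 6 groups of the 32 arrays, CON cows and a later day included. They do not measure the spread of the HIGH cows alone. On simulated data for this comparison (24016 probe sets, 200 changed), 76% of 1.5-fold and 99% of 2-fold changes were recovered. Of 176 calls there, 0.568% were false. The simulated errors were normal and independent between probe sets, and far fewer probe sets changed than were called in the real data. The false share is therefore not an estimate for the calls reported here.

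Named are the 15 largest rises and falls shared by all 5 paired cows, up to 5 members per list by smallest p among 39 gene lists and 10 marker lists, a fixed set of genes (not all are reported here), the 5 smallest p for HIGH minus CON and the 5 most even 2-fold changes. Further genes were named after their values were seen. The members and lists were chosen with earlier results of these data known. Alternatives changed the block, the arrays fitted, the trend, a filter on dim probe sets, the scaling, array weights, the probe set rule and single arrays. No sequence was used.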

Additional observations from a re-analysis of the deposited data

Results flagged for a closer look

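In 24 of 430 sets of values, 1 gene on 1 day, a single HIGH cow stood apart from the others; chance gives about 1 in 20, and no array held more than 4. The values are log2.

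In immune and plasma protein genes, SAA3 at 1 d was 13.34 in cow 439 and 10.50 to 11.13 in the others. CXCL10 at -8 d was 11.03 in cow 460 (others 7.05 to 7.91), where CCL3 was 8.01 (others 8.24 to 8.32). APOA1 at 1 d was 13.21 in cow 432 (others 13.65 to 13.85) and TTR 13.79 in cow 439 (others 14.01 to 14.10). At -8 d SERPINF2 was 11.62 in cow 439 (others 11.83 to 11.91) and BOLA-DYA 3.88 in cow 432 (others 3.43 to 3.54).

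In lipid genes at -8 d, THRSP was 7.22 (others 8.23 to 8.62) and PLIN2 7.07 (others 7.50 to 7.59) in cow 462, SQLE 10.07 (others 10.52 to 10.66) and DGAT1 8.56 (others at most 8.30) in cow 529, FASN 7.60 in cow 432 (others 7.86 to 7.96) and CYP7A1 11.43 in cow 439 (others 10.57 to 10.80). At 1 d DGAT1 was 8.44 in cow 439 (others 8.77 to 8.90) and SCARB1 9.86 in cow 529 (others 10.08 to 10.18).

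Among the remaining genes, IGF1 at 1 d was 8.61 in cow 432 (others 7.65 to 7.87), the cow whose IGF1 did not fall. FBP1 at 1 d was 10.54 in cow 529 (others 11.49 to 11.99), where CCND1 was 7.33 (others 7.87 to 8.16). SLC7A5 was 5.13 (others 5.60 to 5.75) and HBA 4.89 (others 4.28 to 4.48) in cow 432 at 1 d, and LDHD 6.72 in cow 512 (others 6.31 to 6.43). At -8 d PIK3CA was 6.24 (others 6.36 to 6.40) and TFR2 10.73 (others 10.55 to 10.58) in cow 432, and ANXA4 was 12.99 in cow 529 (others 13.17 to 13.22).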

How the results depend on the processing

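None of the 3982 probe sets called was called in the opposite direction under any alternative that was run. With no cow block 1670 probe sets were higher and 1413 lower, against 2090 and 1892 with it, and with cow as a fixed block in the 5 paired cows 1530 and 1057. The 11 HIGH arrays alone gave 1575 and 1205, those 11 arrays quantile normalised again 1343 and 1317, and leaving out 1 array at a time 1594 to 2083 higher and 1376 to 1936 lower. Centring on low-variance probe sets gave 2573 and 1228, so that 67.7% of calls were higher against 52.5%, and moved the median change of all probe sets from -0.018 to 0.0227. The other settings kept both counts within 1.5 times. The difference between diets had 0 calls in every alternative run for it, with 1723 probe sets at an unadjusted p under 0.05 in the reported fit. Of 215 genes with a printed value, the fixed block kept the side of the threshold in 186, no block in 200, the 11 arrays quantile normalised again in 187 and low-variance centring in 201. With the mean of all probe sets of a gene, ALB turned from -0.09 to 0.004 (adjusted p = 0.957), and LDHA (0.13, adjusted p = 0.38), TGFBR2 (-0.09, adjusted p = 0.404), GHR (adjusted p = 0.333), EIF3A (0.03, adjusted p = 0.846), ERG, IL33, AHSG, CEBPD, FDFT1 and PIK3CA did not pass. The causes were not tested. Detection calls were not used here, so the order of dim values is uncertain.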

Other observations

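Beside the named genes, 628 of the probe sets higher at 1 d and 816 of those lower carried no gene symbol or several, and 28 and 33 of them changed at least 2-fold. The one with the largest rise went from 5.33, 4.18, 5.88, 4.85 and 5.88 to 8.09 to 10.80 (median 9.26; change 4.17, SE 0.82, adjusted p = 0.000555). The one with the largest fall went from 10.63, 9.97, 10.54, 11.45 and 9.80 to 6.59 to 8.94 (median 7.52; change -2.76, SE 0.56, adjusted p = 0.000774), with a change of -0.57 in CON.

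A few genes varied widely among the cows and little across calving, and were picked for that spread after the values were seen. BOLA-N, a class I histocompatibility gene, was 7.48, 5.73, 5.10, 4.97 and 10.73 at -8 d and 7.76, 4.44, 4.73, 4.62 and 10.13 in the same cows at 1 d. S100A10, the calpactin light chain, was 11.09, 7.04, 11.31, 7.88 and 6.68 and then 11.01, 7.10, 11.50, 7.41 and 7.85. FBP2, the muscle fructose bisphosphatase, was 8.46, 8.64, 5.58, 4.19 and 4.53 and then 9.12, 8.14, 6.73, 4.49 and 5.11. In each of the 3 genes the range among cows was wider than any cow's own change, and none passed the calving test (adjusted p = 0.991, 0.755 and 0.871).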
